A study of Mus musculus with 27 samples.

Results

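Neuropeptides are small signalling proteins that neurons cut from larger precursors and release from dense core granules. The set described here holds 39 listed genes that encode such precursors, among them the opioid precursors, and the receptors that some of the peptides act on. A member was any listed gene whose symbol was the only one annotated to a probe set, a group of short probes that together report 1 transcript. Symbols of the platform annotation were first updated by gene identifier. By that rule 32 of the 39 genes had a probe set, with 40 sets in all, out of 8252 genes named on the array. Crh, Crhbp, Pmch, Cartpt, Nts, Agrp and Grp had no probe set matched, and their RNA levels were not analysed here. RNA came from whole brains of 2 inbred mouse strains, untreated and 10 weeks old. The DBA group was 4 animals of the strain labelled DBA/2J, whose sex the labels do not give. The C57 group was 5 males of the strain labelled C57BL/2. Each animal had 1 array among those analysed, and the comparison asks how the levels of these transcripts differ between DBA and C57 brain.

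Most neuropeptides act on receptors coupled to G proteins. A peptide gene is typically active in a few scattered groups of neurons, such as somatostatin in cortical interneurons, enkephalin in the striatum, or vasopressin and oxytocin in the hypothalamus. Opioid peptides dampen pain and act on reward circuits, neuropeptide Y and orexin act on feeding and arousal, and the releasing hormones act on the pituitary. In whole brain RNA, fewer cells of a type and less RNA per cell cannot be told apart.

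Values are deposited intensities, the brightness of a probe set on a linear scale, and since probe sets differ in how strongly they bind, levels of different genes were not compared. The dimmest 25% of probe sets, with a geometric mean over all arrays under an intensity of 35.4, were left out of the test, which left 9316 sets. Median intensity of an array lay between 159.6 and 197.8. Correlations between pairs of arrays over all sets ran from 0.946 to 0.970, with sets that are not independent of each other. RNA integrity was read from Gapdh, as log2 of its 3' control set over its 5' one, which was -0.359 ± 0.0568 in DBA and -0.237 ± 0.0380 in C57 (SD, n = 4 and 5, exact 2-sided permutation p = 0.0159). For beta actin it was 0.564 ± 0.062 in DBA and 0.690 ± 0.150 in C57 (exact permutation p = 0.159). The part of this measure in any result was not tested. The Y-linked Eif2s3y ran between 295.8 and 337.8 in DBA and between 249.3 and 384.1 in C57. The suffix of its probe set marks probes that match a family of like sequences. Of the other sex-linked genes, Uty ran between 62.7 and 102.4 in DBA and between 57.6 and 173.2 in C57. Kdm5d, too dim to test, ran between 3.9 and 32.5 in DBA and between 6.5 and 44.3 in C57. Xist, the transcript of the inactive X chromosome, ran between 16.4 and 24.8 in DBA and between 19.6 and 36.0 in C57. The sex of the DBA animals was not tested.

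Peptide and receptor transcripts bright enough to test showed no difference between DBA and C57 brain past the threshold, at the precision that 9 arrays allow. The exception, among the dimmest sets, was a somatostatin receptor. Of the 32 members, 27 had a probe set bright enough to test, with 34 sets between them. None of the 27 differed between the strains at an adjusted p under 0.05 in limma's moderated test, which called 2.50% of all 9316 tested sets. At an unadjusted p under 0.05 there were 2 member sets, 5.88% of the 34, against 12.2% of all tested sets. Those were Oprl1, the nociceptin receptor, and Adcyap1, the precursor of PACAP. In no tested member set did the animals of one strain all lie above those of the other, while 6.45% of all tested sets were separated in this way. The separated member set was that of Sstr1, a somatostatin receptor, and it lay below the brightness limit.

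By the brightest set of each gene, 15 members had a higher mean in DBA and 12 a lower one. Their log2 differences, DBA minus C57, ran from -0.43 to 0.56 with a median of 0.02, beside 0.01 over all tested sets. The median size of a difference, regardless of sign, was 0.151 for the members and 0.146 for all tested sets. Of the 17 precursors tested, 12 had a higher mean in DBA and 5 a lower one, with a median of 0.03. Of the 10 receptors tested, 3 had a higher mean in DBA and 7 a lower one, with a median of -0.10. For 28 of the 34 sets the 95% interval of the log2 difference lay inside -1 to 1, so a difference of 2-fold fell outside it, and the same held for 85.3% of all tested sets. The interval of 4 members, by their brightest set, reached past 1 or -1.

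**Figure D1:**
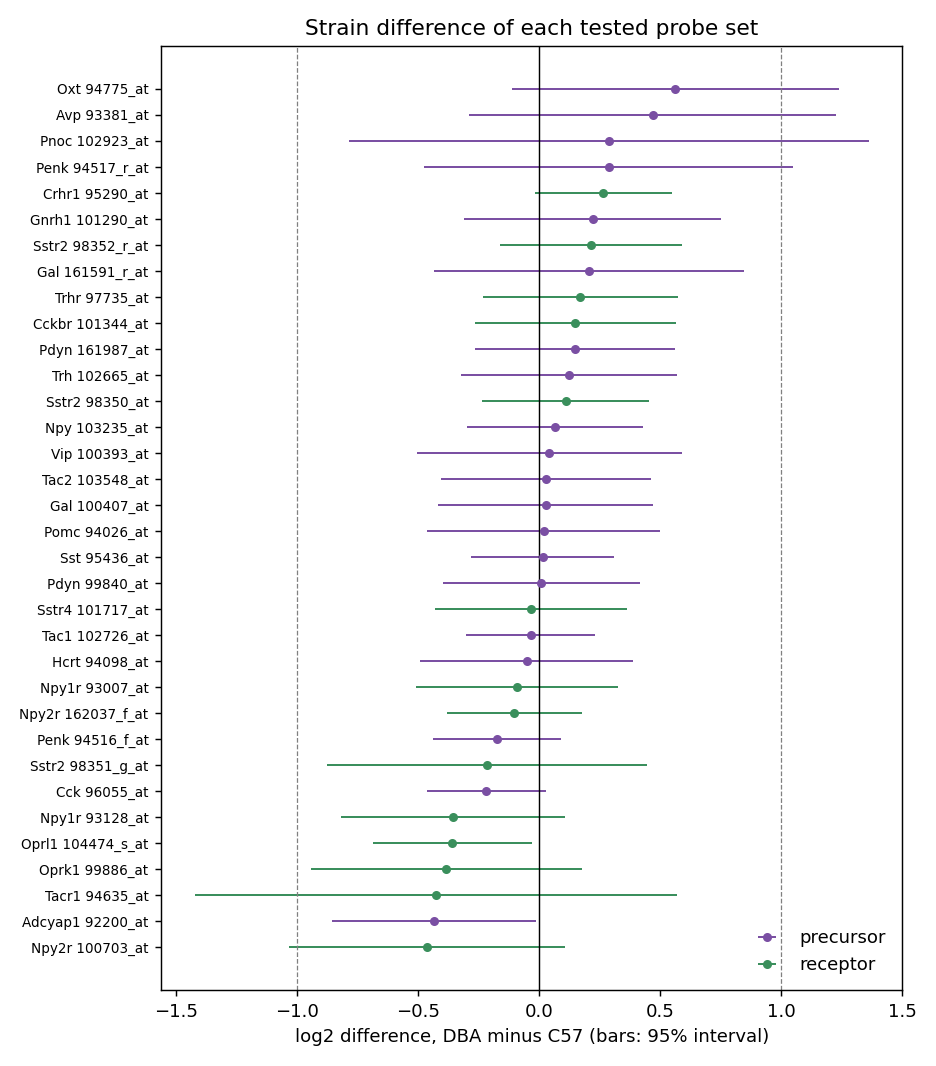
Log2 difference in intensity, DBA minus C57, of each of the 34 tested member probe sets, as points with 95% intervals, with precursors and receptors in separate colours and dashed lines at -1 and 1. The points run from -0.46 for the dimmer Npy2r set to 0.56 for Oxt, and all intervals but those of Oprl1 and Adcyap1 include 0.

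Somatostatin receptor 1, which damps neurons when somatostatin binds it, read far brighter in DBA brain at its only probe set. Its probe set 101318_at read 67.5, 143.2, 58.5 and 74.5 in DBA animals 1 to 4, against 9.1, 9.5, 12.9, 8.9 and 5.6 in C57 animals 1 to 5. All 4 DBA animals lay above the brightness limit and all 5 C57 animals below it. Because the C57 values may be background, a bound was taken against the limit itself, and the DBA geometric mean of 80.6 was at least 2.27-fold higher than it. The geometric mean over all 9 arrays, which the filter uses, was 23.7, so the set was not among the 9316 tested, though its arithmetic mean of 43.3 lay above the limit. In the fit with no filter on dim sets it passed, with an adjusted p of 0.00108 in limma, where 1.63% of 12422 sets were called. The fitted log2 difference of 3.18 ± 0.31 rests on C57 values under the limit and is not a measured size. Across the same sets, 2.40% had every DBA animal above every C57 animal. Among the 3106 dim sets alone, 63 were separated in either direction. Sstr1 was singled out after its values were seen. It had no second probe set, and whether its probes bind the transcript of both strains alike was not tested.

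The mouse gene order of assembly GRCm38.p6 puts Sstr1 on chromosome 12, and none of the genes measured beside it passed the threshold. Foxa1, a transcription factor of midbrain dopamine neurons, was the nearest measured gene on one side. Its geometric means of 30.2 in DBA and 11.5 in C57 both lay under the brightness limit. The fitted log2 difference of 1.39 ± 0.48 (adjusted limma p = 0.333 with no filter) is thus not a measured size. For Prps1l3, probe set 104039_at had every DBA animal above every C57 animal, with geometric means of 65.4 and 30.3, the latter under the limit. Its log2 difference was 1.11 ± 0.47 (adjusted limma p = 0.472 with no filter), and that of 95018_r_at was -0.26 ± 0.16. Sec23a, a coat protein of transport vesicles on the other side, had differences of -0.01 ± 0.10 and 0.25 ± 0.14 at its 2 sets. The remaining neighbours measured, Pax9, Mipol1, Pnn, Prpf39 and Fkbp3, had log2 differences from -0.54 to 0.21, none past the threshold in the fit with no filter. Both ends of that range came from sets under the limit, Prpf39 161795_r_at and Pax9.

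The other dim members were the receptors Oprm1, Oprd1, Npy5r and Sstr3 and a further Penk set. Their strains overlapped, and nothing in these values shows whether the transcript is present. Npy5r, a neuropeptide Y receptor that promotes feeding, read between 19.3 and 46.6 in DBA and between 27.4 and 50.6 in C57. Sstr3, the somatostatin receptor of neuronal cilia, read between 28.0 and 51.0 in DBA and between 25.5 and 30.7 in C57. The Penk set 161164_r_at stayed between 1.8 and 17.7 in DBA and between 2.1 and 9.3 in C57, although Penk had bright values at another set.

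**Figure D2:**
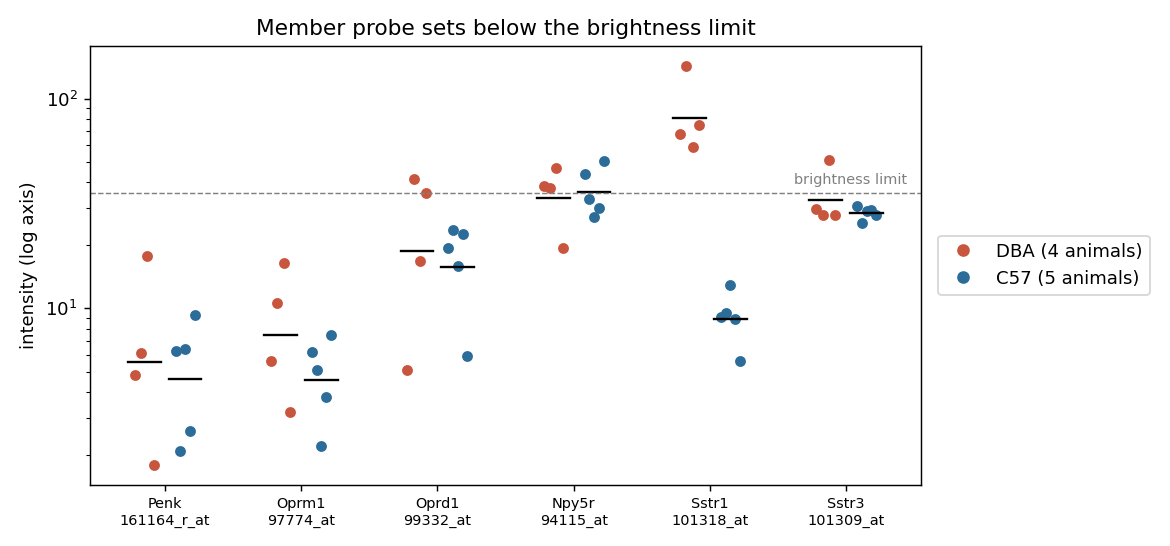
Intensity on a log axis of the 6 member probe sets below the brightness limit of 35.4 (dashed line), for each of 4 DBA and 5 C57 animals, with a bar at the geometric mean. For Sstr1 the DBA animals run from 58.5 to 143.2 and the C57 animals from 5.6 to 12.9, while the strains overlap at the 5 other sets.

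The 4 opioid precursors gave no difference between the strains beyond the spread of the animals. Penk encodes proenkephalin, the source of the enkephalins. Its brightest set, 94516_f_at, read 7587.4, 8431.6, 8492.9 and 7430.1 in DBA against 7777.1, 9648.3, 8212.4, 10713.2 and 8869.2 in C57. The ranges overlapped, with 3 of the C57 animals above every DBA animal, and the log2 difference was -0.17 ± 0.12 (95% interval -0.44 to 0.09, adjusted p = 0.650). The suffix of this set marks probes that match a family of like sequences. A second set, 94517_r_at, had a difference of 0.29 ± 0.34, and DBA animal 3 reached 1000.5 there while DBA animal 4 read 248.3.

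Pdyn encodes prodynorphin, whose peptides act mainly on the kappa receptor. Its set 161987_at read 198.5, 248.5, 273.6 and 313.6 in DBA against 273.6, 189.3, 301.7, 195.9 and 210.7 in C57, a log2 difference of 0.15 ± 0.18. The strains were interleaved, as they were at the second Pdyn set, with a difference of 0.01 ± 0.18. Pomc, the precursor of beta-endorphin and the melanocortins, read 109.7, 201.4, 187.2 and 134.5 in DBA against 157.1, 123.3, 203.7, 161.1 and 125.1 in C57. Its log2 difference was 0.02 with a 95% interval of -0.46 to 0.50. Pituitary cells also make Pomc, and the summed intensity of 10 sets of pituitary markers, Gh and Prl among them, ran from 739 to 1106 in DBA and from 596 to 1205 in C57.

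Pnoc, which encodes the nociceptin precursor, was the least even of the tested members by brightest set. It read 101.3, 115.1, 72.8 and 121.1 in DBA against 22.7, 106.5, 93.1, 141.8 and 119.3 in C57. A single animal, C57 1, stood far below the rest, and the strains otherwise overlapped. The log2 difference was 0.29 ± 0.48 with all animals and -0.18 when C57 1 was left out.

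Among the opioid receptors, the nociceptin receptor gene had the smallest p of all tested members. Oprl1, at set 104474_s_at, read 318.2, 331.2, 268.3 and 346.6 in DBA against 450.5, 335.3, 514.4, 374.4 and 366.5 in C57. Whether the probes of this set also match other transcripts was not tested. Of the C57 animals, 4 lay above every DBA animal, and C57 2 lay inside the DBA range. The log2 difference was -0.36 ± 0.15, 1.28-fold lower in DBA, with an unadjusted limma p of 0.0354 and an adjusted p of 0.351, so it did not pass. Across the alternatives of processing and animals left out its adjusted p stayed between 0.238 and 0.617.

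Oprk1, the kappa receptor gene, read 76.8, 46.3, 36.2 and 66.3 in DBA against 82.0, 91.5, 76.4, 50.1 and 60.3 in C57. The strains overlapped, and the log2 difference was -0.38 ± 0.25 (adjusted p = 0.631). Oprm1, the gene of the mu receptor on which morphine acts, read 5.6, 10.6, 16.4 and 3.2 in DBA against 6.2, 5.1, 2.2, 3.8 and 7.5 in C57. For Oprd1, the delta receptor gene, the values were 5.1, 41.2, 16.9 and 35.4 in DBA against 19.4, 23.6, 15.9, 22.7 and 5.9 in C57. Both sets are dim, their animals scatter within each strain, and no fold was taken.

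Neuropeptide Y, a peptide of cortical interneurons and of hypothalamic neurons that drive feeding, had overlapping values in both strains. Npy read 2477.0, 2291.1, 2347.4 and 1701.8 in DBA against 1928.5, 1847.4, 1743.2, 2439.9 and 2590.0 in C57, with a log2 difference of 0.07 ± 0.16. Both strains covered nearly the same range. Npy1r, the receptor of the Y1 type, had a difference of -0.09 ± 0.19 at its brighter set and -0.35 ± 0.21 at 93128_at. Npy2r, the Y2 receptor that sits on nerve endings, had a difference of -0.10 at its brighter set (95% interval -0.38 to 0.18). At 100703_at the difference was -0.46 ± 0.25. The suffix of the brighter Npy2r set, 162037_f_at, also marks probes that match a family of like sequences. All 4 receptor sets had a lower mean in DBA, and none passed the threshold (adjusted p between 0.536 and 0.907).

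Somatostatin, which marks a large class of cortical interneurons and inhibits hormone release, likewise had overlapping values. Sst read 3565.1, 3952.8, 4223.4 and 3236.5 in DBA against 3263.8, 3633.9, 3212.2, 4351.3 and 4111.6 in C57. The log2 difference was 0.01 ± 0.13, with a 95% interval of -0.28 to 0.31. Its receptor Sstr2 had 3 tested sets that disagreed in sign, with differences of -0.21 ± 0.30 at 98351_g_at, 0.11 ± 0.15 at 98350_at and 0.22 ± 0.17 at 98352_r_at. Sstr4, a receptor of hippocampus and cortex, had a difference of -0.03 ± 0.18. Neither the ligand nor the other tested receptors passed the threshold.

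The promoter of Sst is a textbook example of a cAMP response element, the letters TGACGTCA that the factor CREB binds. Within the 250 bases before the start, these letters stood in 1.55% of the 32851 mouse promoters in RefSeq. Of the 30 members that have an entry, with 37 promoters between them, 3 carried the letters, Cartpt, Sst and Sstr2. The table has no entry for Sstr1 or Penk. The palindrome reads the same on both strands. The 250 bases before the start of Sst and Sstr2 are shown, 5′ to 3′ on the gene's strand in assembly GRCm38.p6, because ligand and receptor both carry the element, given in capitals. Sst lies at chr16:23890845-23891094 on the minus strand, with the element's first base 48 bases before the start, and Sstr2 at chr11:113619077-113619326 on the plus strand, with its first base 58 bases before.
Sst: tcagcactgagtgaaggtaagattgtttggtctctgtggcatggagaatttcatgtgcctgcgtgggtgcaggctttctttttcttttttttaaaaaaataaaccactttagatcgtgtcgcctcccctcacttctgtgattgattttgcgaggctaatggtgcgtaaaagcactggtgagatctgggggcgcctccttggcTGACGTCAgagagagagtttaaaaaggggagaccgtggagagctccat
Sstr2: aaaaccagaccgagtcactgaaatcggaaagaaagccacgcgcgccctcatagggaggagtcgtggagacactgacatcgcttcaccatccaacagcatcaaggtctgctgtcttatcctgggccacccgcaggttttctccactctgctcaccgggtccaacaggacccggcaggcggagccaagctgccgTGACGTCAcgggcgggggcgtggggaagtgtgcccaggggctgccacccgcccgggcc
The match is a description of the letters and shows nothing about binding, and neither gene passed the threshold.

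PACAP, a peptide that raises cAMP in target neurons, had the lowest difference of the members by brightest set. Adcyap1 read 520.6, 477.7, 400.6 and 665.1 in DBA against 755.3, 556.7, 927.6, 583.8 and 665.1 in C57. Of the DBA animals, 3 lay below every C57 animal, while DBA 4 was level with C57 5 and above C57 2 and C57 4. The log2 difference was -0.43 ± 0.19, 1.35-fold lower in DBA, with an unadjusted limma p of 0.0448 and an adjusted p of 0.388, so it did not pass. Vip, the related peptide of an interneuron class and of the body's clock, read 151.2, 242.1, 225.7 and 119.3 in DBA against 232.0, 155.6, 204.7, 157.0 and 129.8 in C57. Its strains were interleaved, with a difference of 0.04 ± 0.24.

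Cholecystokinin is made by many cortical and hippocampal neurons. Cck read 5812.8, 5625.4, 7226.2 and 5840.8 in DBA against 6469.0, 7362.0, 6721.6, 7247.7 and 7692.1 in C57. All DBA animals but DBA 3 lay below every C57 animal, and the log2 difference was -0.22 ± 0.11 (unadjusted limma p = 0.0770, adjusted p = 0.488). Its spread within strains was the smallest of the members. Cckbr, the main brain receptor for the peptide, had a difference in the other direction, 0.15 ± 0.19, with geometric means of 860.3 in DBA and 774.8 in C57.

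None of the tachykinin genes passed the threshold. Tac1, the precursor of substance P, read 764.8, 720.6, 921.1 and 709.5 in DBA against 878.7, 881.7, 778.5, 715.2 and 729.2 in C57. Its strains overlapped throughout, and the difference was -0.03 ± 0.12 with a 95% interval of -0.30 to 0.23. Tac2, the neurokinin B precursor, was tightly grouped in DBA, between 255.7 and 269.5, and ran between 163.5 and 330.4 in C57, with a difference of 0.03 ± 0.19. Tacr1, the substance P receptor gene, was near the brightness limit, between 23.2 and 82.8 in DBA and between 21.6 and 74.2 in C57. Its difference of -0.43 had a 95% interval of -1.42 to 0.57, so a level 2-fold lower in DBA lies inside it.

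**Figure D3:**
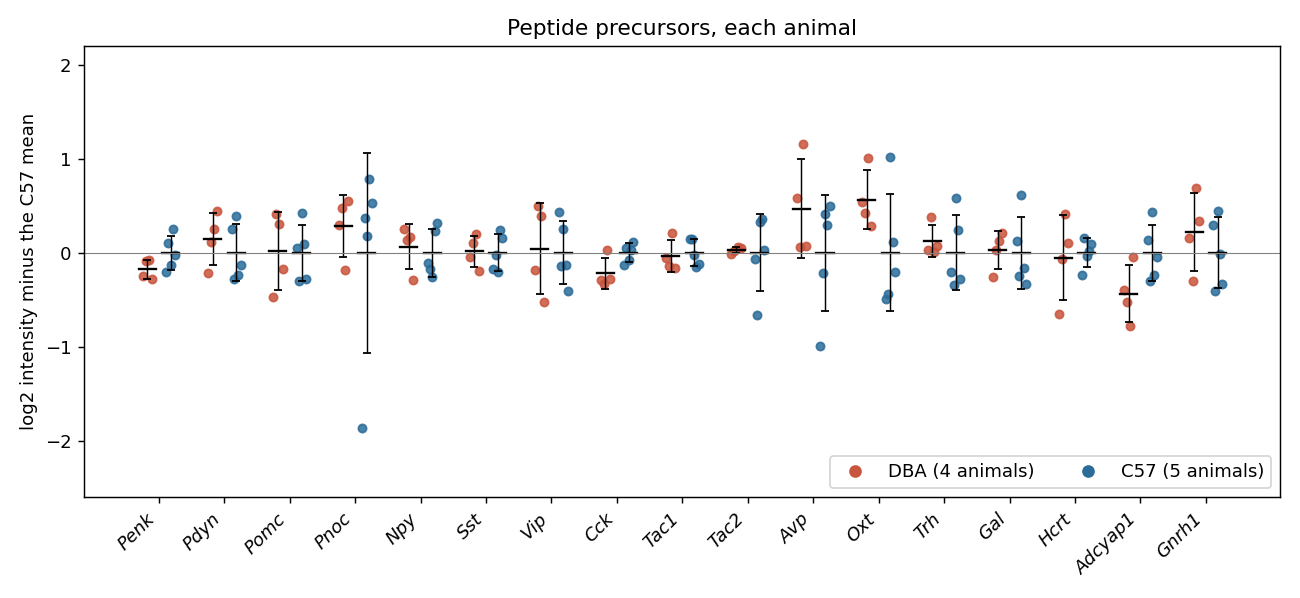
Log2 intensity of the brightest set of 17 peptide precursors in each animal, as the distance from the C57 mean of the same gene, with the mean and SD of 4 DBA and 5 C57 animals as bars. The strains overlap for every gene, and C57 1 stands far below the other animals for Pnoc (22.7 against 93.1 or more).

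The genes with the largest positive differences were those of the hypothalamic hormones oxytocin and vasopressin, though neither passed the threshold. Oxt, which drives milk release and social behaviour, read 846.4, 776.4, 1162.3 and 706.1 in DBA against 411.7, 427.2, 1179.0, 627.1 and 504.0 in C57. Every DBA animal lay above all C57 animals but C57 3, which was the highest of all. The log2 difference was 0.56 ± 0.30, a 1.48-fold ratio, with an unadjusted limma p of 0.0920 and an adjusted p of 0.520. Without C57 3 it was 0.82, with an adjusted p of 0.0892, the lowest of any tested member set under any alternative. Avp, the antidiuretic hormone precursor, read 446.6, 309.5, 665.0 and 312.5 in DBA against 149.4, 256.0, 396.6, 365.7 and 418.4 in C57. The strains overlapped, with C57 1 the lowest and DBA 3 the highest animal, and the difference was 0.47 ± 0.34 (adjusted p = 0.672).

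Oxt and Avp are neighbours on mouse chromosome 2 and point toward each other, Oxt on the plus and Avp on the minus strand. The E-box CACGTG, which reads the same on both strands and binds clock factors among others, stood in 6.02% of the 32851 promoters and in 7 of the 30 members with an entry, Avp, Cck, Cckbr, Npy5r, Oprd1, Sstr3 and Tac1. A direct repeat of nuclear receptor half-sites, TGACCNTGACC on either strand, stood in 0.0670% of promoters, 22 of 32851, and among the members in that of Oxt. The 250 bases before each start are shown in assembly GRCm38.p6 because these genes have the largest differences by brightest set. Capitals mark the E-box in Avp, at chr2:130582589-130582838 on the minus strand with the box's first base 139 bases before the start, and the repeat in Oxt, at chr2:130575919-130576168 on the plus strand with its first base 166 bases before.
Avp: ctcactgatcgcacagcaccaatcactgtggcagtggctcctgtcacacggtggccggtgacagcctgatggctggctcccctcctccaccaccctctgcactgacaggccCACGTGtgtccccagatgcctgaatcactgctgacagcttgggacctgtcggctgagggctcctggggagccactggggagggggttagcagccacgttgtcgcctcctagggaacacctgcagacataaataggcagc
Oxt: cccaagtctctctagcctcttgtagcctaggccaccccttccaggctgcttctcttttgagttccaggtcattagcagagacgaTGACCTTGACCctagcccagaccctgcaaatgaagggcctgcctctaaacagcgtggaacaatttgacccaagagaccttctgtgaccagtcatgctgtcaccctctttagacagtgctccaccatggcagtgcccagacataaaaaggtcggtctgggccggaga
The letters are described only, and no binding was measured.

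Crhr1, the receptor for the stress hormone CRH, read 465.7, 500, 413.3 and 380.6 in DBA against 345.0, 443.7, 323.3, 360.1 and 358.3 in C57. All DBA animals lay above every C57 animal but C57 2, and the log2 difference was 0.27 ± 0.13, a 1.20-fold ratio (unadjusted limma p = 0.0633, adjusted p = 0.451). Its ligand Crh was not analysed here. Trh, which releases thyrotropin, had a difference of 0.13 ± 0.20, and its receptor Trhr one of 0.17 ± 0.18. Gnrh1, the precursor of the hormone that starts puberty, had a difference of 0.22 ± 0.24, with a range of 86.3 to 171.3 in DBA and 80.6 to 145.4 in C57.

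Orexin neurons of the lateral hypothalamus keep animals awake. Their precursor Hcrt read 283.3, 425.5, 594.3 and 479.6 in DBA against 377.8, 498.7, 434.8, 450.6 and 475.9 in C57. DBA held both the lowest and the highest animal, and the difference was -0.05 ± 0.20. Gal, the precursor of galanin, which is made in sleep-promoting and other hypothalamic neurons, had differences of 0.03 ± 0.20 and 0.21 ± 0.29 at its 2 sets, with the strains overlapping at both.

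**Figure D4:**
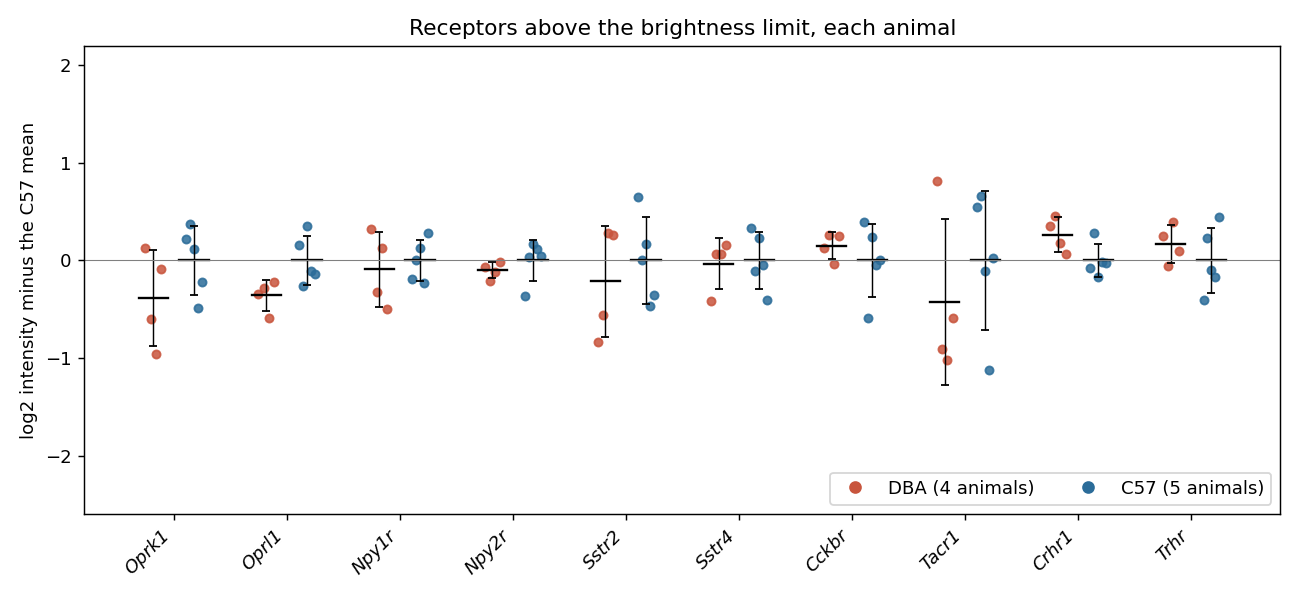
Log2 intensity of the brightest set of 10 receptor genes in each animal, as the distance from the C57 mean of the same gene, with the mean and SD of 4 DBA and 5 C57 animals as bars. The strains overlap for every gene, and Oprl1, with a difference of -0.36, has the smallest p of the tested members.

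The members varied between arrays of one strain somewhat more than the median tested set. Their median residual SD, the spread of log2 values around the strain means, was 0.301, beside 0.244 over all tested sets, and 20 of 27 members lay above that median. It ran from 0.133 for Cck to 0.833 for Pnoc. Tacr1 with 0.771, Avp with 0.580 and Oxt with 0.512 came next by brightest set. Members and all tested sets were not matched for brightness. With 1 array per animal, variation between animals and between arrays cannot be told apart. Of the 9 animals, DBA 3 was the highest of its strain for 11 of 27 members (40.7%), beside 27.2% of all tested sets. C57 3 was highest for 9 members (33.3%, beside 26.7%), and C57 1 and C57 2 were each lowest for 8 (29.6%, beside 17.1% and 16.9%). With each array centred on its median, DBA 3 was highest for 9 members (beside 24.3% of all sets), C57 3 highest for 8 (beside 18%), C57 1 lowest for 11 (beside 30.7%), C57 2 lowest for 7 (beside 11.9%) and DBA 4 lowest for 12 (beside 35.6%).

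Pairs of peptides made in the same neurons or region were followed across animals as deviations from the strain mean. Of 6 pairs, none passed after adjustment over all 9 animals. Sst and Npy, which share a class of cortical interneurons, had the highest correlation, with Pearson r of 0.82 (exact permutation p = 0.0278, adjusted 0.167) and Spearman rho of 0.80 (exact permutation p = 0.0281, adjusted 0.139) over 9 animals. It was 0.81 without the 2 animals farthest from the median of Sst. Avp and Oxt had r of 0.68 (exact permutation p = 0.0813, adjusted 0.244) and rho of 0.70 (exact permutation p = 0.0462, adjusted 0.139), and r of 0.56 without the 2 farthest animals. For Penk and Pdyn r was -0.59 and rho -0.62 (exact permutation p = 0.131 and 0.115). Penk and Tac1 had r of -0.11 and rho of -0.05, with r of 0.58 without the 2 farthest animals, so their value rests on those animals (exact permutation p = 0.789 and 0.913). Tac1 and Pdyn had r of 0.10 and rho of -0.07 (exact permutation p = 0.816 and 0.889). Cck and Vip had r of -0.14 and rho of -0.45 (exact permutation p = 0.836 and 0.276), and r of -0.54 without the 2 farthest animals. Without DBA 3 alone, the most extreme case, r was -0.80 with an adjusted exact permutation p of 0.00833. Without DBA 2, C57 1 or C57 5 alone, r was 0.058, 0.062 and 0.027, so the value of this pair depends on which animal is left out.

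**Figure D5:**
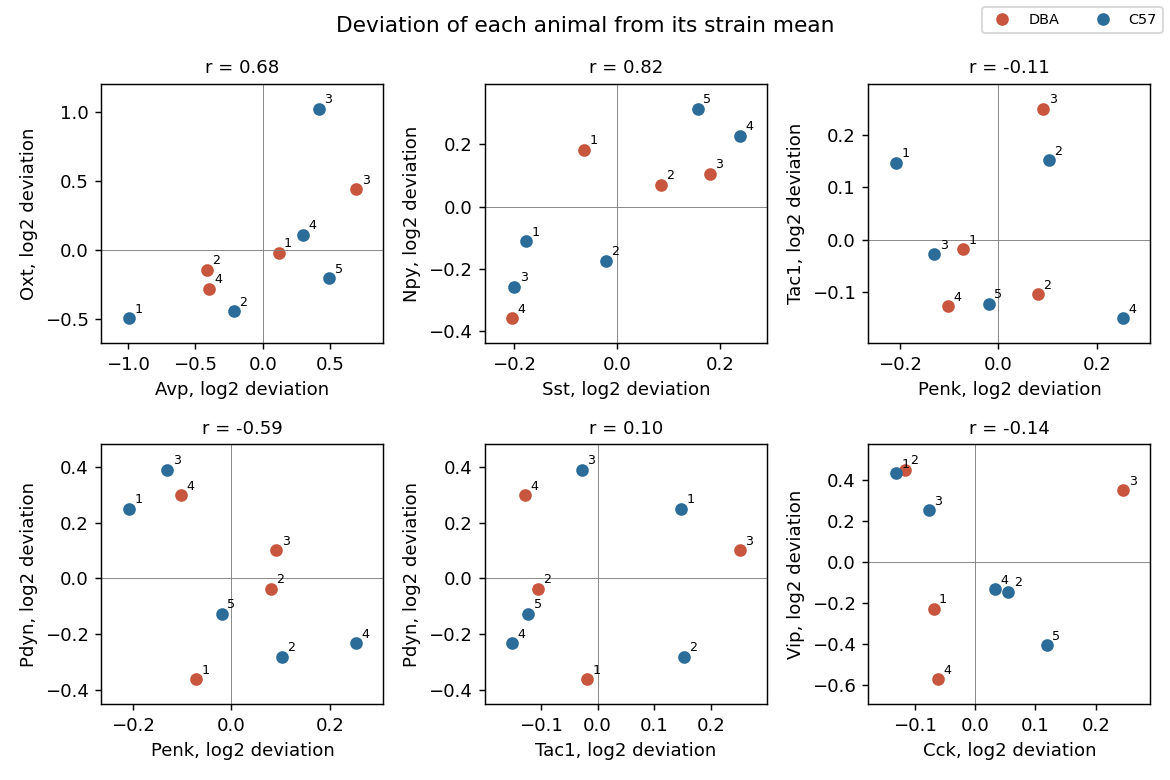
Deviation of log2 intensity from the strain mean for 6 pairs of peptide genes, 1 point per animal with its number, for 4 DBA and 5 C57 animals, and Pearson r above each panel. The panels of Sst and Npy (r = 0.82) and of Avp and Oxt (r = 0.68) have the highest r, the other pairs show r between -0.59 and 0.10, and no pair passed after adjustment.

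Probe sets of the same gene gave a wide range of correlations. Of 8 such pairs, a comparison added after the data were seen, Gal alone passed, with r of 0.93 over 9 animals (exact permutation p = 0.000694, adjusted 0.00556), rho of 0.93 (exact permutation p = 0.00174) and r of 0.89 without the 2 farthest animals. After quantile normalization the Gal pair had r of 0.887 and an adjusted exact permutation p of 0.0639, so it did not pass there. The Pdyn sets had r of 0.66 and rho of 0.72 (exact permutation p = 0.0833 and 0.0545), and the Penk sets r of 0.41 and rho of 0.43 (exact permutation p = 0.164 and 0.201). For Npy1r r was -0.35 and rho -0.35, and for Npy2r r was 0.12 and rho 0.23 (exact permutation p between 0.412 and 0.768). The 3 pairs of Sstr2 sets had r of 0.52, 0.01 and 0.00 and rho of 0.35, -0.18 and 0 (exact permutation p between 0.159 and 1).

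Among the other genes of the pathway, those that passed by their brightest set belonged to peptide processing. Of 42 further precursors listed, 22 were on the array and 19 were tested, and none passed by its brightest set, with a median of 0.18. At a dimmer set, Edn1, the endothelin 1 precursor, fell by 0.76 on the log2 scale in DBA (adjusted p = 0.00851). Of 57 further receptors listed, 37 were on the array and 23 were tested, and none passed, with a median of 0.04. The smallest p belonged to the neurotensin receptor gene Ntsr2, with a difference of -0.39 ± 0.14 (adjusted p = 0.237). Of 30 genes of peptide processing and dense core granules, 23 were tested, with 2 higher in DBA, none lower and a median of -0.03, where 2.50% of all tested sets were called in either direction. Pam, the enzyme that amidates many of these peptides, read higher in DBA by 4.09 ± 0.50 on the log2 scale (adjusted limma p = 0.00157). Its set 100496_at ran from 1094.2 to 1655.5 in DBA and from 22.4 to 160.3 in C57, with C57 1 under the brightness limit. Scg5, the chaperone of prohormone convertase 2, read higher by 0.70 ± 0.12 (adjusted limma p = 0.00885). Whether the probes of these sets bind the transcripts of both strains alike was not tested.

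The marker lists are read beside the 2.50% called among all tested sets. Of 14 hypothalamic markers tested, 4 striatal, 5 pituitary, 14 neuronal and 9 astrocyte ones, none passed by the brightest set, with medians of 0.05, -0.07, 0.36, 0.04 and -0.14. The smallest p in these lists belonged to Hdc (-0.59 ± 0.24), Foxp1 (-0.25 ± 0.12), Ghrhr (0.53 ± 0.32), Syn2 (0.27 ± 0.09) and Glul (-0.54 ± 0.16). The summed intensity of 28 sets of hypothalamic markers ran from 32265 to 47797 in DBA and from 29015 to 38658 in C57, and a single set of Gnas made up most of it. Without that set the sum ran from 14792 to 17338 in DBA and from 12787 to 15573 in C57. It was then highest in DBA 3, the highest DBA animal for Avp and Oxt, and within C57 in C57 3, the highest C57 animal for Oxt, while Avp was highest in C57 5. The part of these markers in the values of Avp and Oxt was not tested. Of 15 interneuron markers 2 passed, a larger share than among all tested sets. Nos1 rose in DBA by 1.07 ± 0.21 (adjusted limma p = 0.0269). Slc32a1, the vesicle transporter of GABA, fell by 1.76 on the log2 scale (adjusted limma p = 0.00416). The interneuron peptides Sst, Npy and Vip had differences between 0.01 and 0.07. Cck, which many cortical and hippocampal neurons make, had one of -0.22. The median of the interneuron markers was -0.03. Of 10 microglial markers 2 passed, again a larger share, and C1qb (-0.85 ± 0.12, adjusted p = 0.00343) and C1qc (-0.65 ± 0.13, adjusted p = 0.0318) fell, with a list median of -0.13. Of 7 oligodendrocyte, 4 blood and 4 choroid plexus markers and 2 sex-linked genes tested, none passed by the brightest set, with medians of -0.36, -0.15, 0.42 and -0.28. In these lists the smallest p belonged to Mobp at the dimmer set 99046_at (-0.84 ± 0.12, adjusted p = 0.00416), S100a8 (-1.01 ± 0.23), Ttr (0.85 ± 0.30) and Uty (-0.63 ± 0.31).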

How the data were processed

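The authors deposited 1 table of intensities for the 9 arrays whose titles hold a strain and a plain number. The 18 arrays with lettered titles were not analysed here. How the scans were summarised per probe set and normalized is not given here by any source used. Per the labels, cRNA came from 5 ug of total RNA by the array maker's procedure. All descriptions carry the alternative name C57 1, so groups came from titles. The mean without the top and bottom 2% was 499.5 to 499.8 on every array, so the deposited values were already scaled.

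Of 12488 probe sets, 66 controls were left out. The annotation gave 1 symbol to 10855 sets, several to 396 and none to 1237, and 10839 symbols were updated by gene identifier with RefSeq (GRCm38.p6). Only sets with 1 symbol were named. A set reaching Tacr1 through an old synonym belongs by its identifier to another gene and was dropped. Intensities under the 1st percentile, 1.70, were raised to it (0.977% of values), before taking log2. The medians of the arrays spanned 0.31 on that scale, so no scaling was added. Strains were compared with limma 3.58.1 (lmFit, then eBayes; R 4.3.3) (design: strain; 2-sided; Benjamini-Hochberg over all 9316 tested sets; threshold 0.05), tested on simulated data. Differences are DBA minus C57 with standard errors, and folds are ratios of geometric means. Correlations used all 2880 pairings within strain, exact and 2-sided, adjusted over the pairs of a family. The pairs of Hcrt with Pmch and Crh with Crhbp could not be made. Promoters were those of RefSeq, searched over the 250 bases before the start. The limma p-values weigh a strain difference against the spread between arrays of the same strain, 1 array per animal. Variation between animals and variation between arrays cannot be told apart in that spread.

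Members and lists were chosen with earlier results of these data known. Every array is given for members with an unadjusted p under 0.05, all opioid members and the main peptides, and others by range and difference. From each other list, up to 4 members past the threshold are named, or the one with the smallest p. Alternatives were other scaling, floors, filters, variance model, threshold, the array number as a block, and each animal left out. Figures were drawn with matplotlib 3.10.9.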

Additional observations from a re-analysis of the deposited data

Results flagged for a closer look

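Of 70 groups examined (each strain at each tested member set and at Sstr1), 5 had an animal far from the others of its strain, 7.14%, where chance gives about 1 in 20. For Pnoc, the nociceptin precursor, C57 animal 1 read 22.7 while the other C57 animals read 93.1 to 141.8. For Npy2r at 162037_f_at, the same C57 animal read 309.2 and the others 409.9 to 448.1. For Sstr4, DBA animal 1 read 426.7 and the others 596.6 to 636.0. For Trh, DBA animal 2 read 242.6 and the others 187.4 to 195.4. For Cck, DBA animal 3 read 7226.2 and the others 5625.4 to 5840.8.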

How the results depend on the processing

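No tested member set passed the threshold under any of 568 alternative values. Of those, 36 turned the sign, in 12 sets, and the largest turned difference was 0.177 in size. With no filter on dim sets 1 member, Sstr1, passed. Member sets with an unadjusted p under 0.05 numbered 2, and 4 after quantile normalization, 0 with the array number as a block, and 0 to 4 with 1 animal left out.

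Over all tested sets, deviations of same-numbered animals correlated at -0.102, -0.0165, -0.00700 and -0.167. What same-numbered arrays may share beyond the number was not tested. The block, which in effect leaves out C57 5, called 73 sets in place of 233, and gave -0.0588 for Vip, -0.0559 for Gal 100407_at, -0.0481 for Pomc, -0.11 for Pdyn 99840_at and 3.01 for Sstr1 (adjusted p = 0.0538 with no filter). With the block 1 gene of peptide processing, 1 interneuron marker and 0 microglial markers passed. Without the filter, Sstr1 kept an adjusted p between 0.000486 and 0.00575 under the other alternatives, with fitted differences of 1.96 to 3.33, which rest on C57 values under the brightness limit and are not measured sizes. At an adjusted p under 0.01, 150 sets passed.

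The count of interneuron markers was 1 with no filter and 1 with the dimmest 50% left out. For oligodendrocyte markers it was 2 with a trended, robust variance. For microglial markers it was 1 with median centring and 1 with no filter. For blood markers it was 1 with quantile normalization, 1 with median centring and 1 with no filter. With 1 animal left out, these counts ran from 1 to 2, 0 to 3, 1 to 2 and 0 to 1.

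With 1 animal left out, differences that crossed 0 ran from -0.11 to 0.23 for Vip, -0.0559 to 0.18 for Gal 100407_at, -0.13 to 0.10 for Sstr4, -0.12 to 0.00768 for Tac1, -0.18 to 0.48 for Pnoc, -0.13 to 0.12 for Tac2, -0.23 to 0.0432 for Npy1r 93007_at, -0.11 to 0.18 for Pomc, -0.20 to 0.15 for Hcrt, -0.0497 to 0.62 for Penk 94517_r_at, -0.0455 to 0.0825 for Sst and -0.11 to 0.0918 for Pdyn 99840_at. The cause was not tested.

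Correlations turned sign for Tac1 with Pdyn (r = -0.0398 after quantile normalization, -0.48 after median centring), Penk with Tac1 (0.38 after median centring) and Sstr2 98351_g_at with 98352_r_at (-0.20 and -0.19). With 1 animal left out r ran from -0.42 to 0.26 for Penk with Tac1, -0.0524 to 0.32 for Tac1 with Pdyn, -0.80 to 0.0617 for Cck with Vip (adjusted exact permutation p = 0.00833 without DBA 3), -0.56 to 0.0807 for Npy1r, -0.0877 to 0.37 for Npy2r, -0.43 to 0.29 for Sstr2 98350_at with 98352_r_at and -0.22 to 0.24 for 98351_g_at with 98352_r_at.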
